A study of Mus musculus with 12 samples.

Results

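The sperm head and tail are held together at the neck by the head-tail coupling apparatus (HTCA). In sorted spermatids, 7 mouse genes for head-tail coupling or SUN-domain proteins were followed here: *Spag4*, *Sun3*, *Sun5*, *Spata6*, *Pmfbp1*, *Tsga10* and *Cntln*. Members were found by gene symbol in a table of read counts per annotated transcript, here called a contig. Of 12114 contigs, 11225 carried a symbol and 12 belonged to 6 of the 7 genes. *Cntln* matched 0 contigs and was not analysed here. All 12 contigs passed the filter on low counts that left 11831 contigs for testing.

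The libraries came from round spermatids (RS) and elongated spermatids (ES) of adult mice of 2 genotypes, Tent5c wt/wt and Tent5c dcat/dcat, with 3 libraries in each of 4 groups. RS are haploid cells just after meiosis, and in the later ES chromatin is compacted, the nucleus is reshaped and the tail is assembled. The dcat allele encodes a catalytically dead TENT5C, an enzyme that lengthens mRNA poly(A) tails, and it is carried by every cell of the animal, on a C57BL/6 background. The cells of both stages were sorted by Hoechst fluorescence and light scatter after propidium iodide was used to leave out dead cells, RNA was selected with oligo(dT) beads, and each library was a pool from 3 mice, so the spread between libraries is a spread between pools. Each library was read by nanopore direct RNA sequencing, in which 1 read stands for 1 RNA molecule. Library totals ran from 337287 counts (ES wt/wt, library number 3) to 1359427 counts (RS wt/wt, library number 3), and a count of 3, used as the floor, equalled 1.77 to 10.6 CPM (CPM here are read counts over the scaled library total, times 1000000).

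In a spermatid the centrioles dock at the back of the nucleus, where the nuclear envelope forms the implantation fossa, and the connecting piece of the tail is built between them. SUN-domain proteins span the inner nuclear envelope and pair with KASH-domain proteins of the outer envelope, which gives the nucleus a grip on the cytoskeleton. *Spag4* (also called *Sun4*), *Sun3* and *Sun5* encode SUN-domain proteins of male germ cells. SPATA6 and PMFBP1 are proteins of the connecting piece, TSGA10 is a tail and centrosome protein, and centlein, the product of *Cntln*, is a centrosome protein. Loss of *Sun5*, *Spata6* or *Pmfbp1* in mice gives headless sperm.

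The sorted stages were checked first. The 8 round spermatid markers summed to 2320 to 2465 CPM in the 6 RS libraries and 1383 to 1461 CPM in the 6 ES libraries. The 8 elongated spermatid markers, protamine and transition protein genes among them, summed to 19994 to 42798 CPM in RS and 215198 to 284327 CPM in ES. Somatic markers moved with stage too. Of 12 Leydig cell genes 7 were counted, summing to 69.0 to 129 CPM in RS and 289.8 to 1069 CPM in ES, and of 14 Sertoli cell genes 7 were counted, summing to 8.55 to 49.8 CPM in RS and 258 to 554 CPM in ES. Contigs of these 2 lists were called higher in ES in 7 of 8 and 9 of 9 cases in both genotypes. Of all tested contigs 23.8% in wt/wt and 24.0% in dcat/dcat were called higher. The median log2 changes of the 2 lists were 4.17 and 3.31 in wt/wt. The 1 Leydig contig not called, of *Fdx1*, was at -0.20 in wt/wt and -0.48 in dcat/dcat. The Leydig genes called were *Insl3* (4.25 in wt/wt), *Cyp17a1* (4.16), *Cyp11a1*, *Fabp3*, *Aldh1a1* and *Ptgds*, and the Sertoli genes were *Clu* (3.10), *Cldn11* (4.49), *Ctsl*, *Cst12*, *Tsx*, *Defb36* and *Aard*. Of the same lists *Hsd3b1*, *Hsd3b6*, *Hsd17b3*, *Star* and *Lhcgr* (Leydig) and *Sox9*, *Amh*, *Rhox5*, *Wt1*, *Inha*, *Gata4* and *Gata1* (Sertoli) matched 0 contigs. Meiotic markers summed to 1961 to 2561 CPM over all 12 libraries. The part of these cells in the stage differences was not tested.

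*Spag4*, *Spata6* and *Pmfbp1* rose from RS to ES in both genotypes, with log2 changes of 1.46 to 2.52 per contig, while no contig of *Sun3*, *Sun5* or *Tsga10* passed the test in the fit without a block. *Sun3* passed it when its contigs were summed, and Sun3-201 also when the library number was a block. A rise here is one in the scaled share of reads. The study states that transcription stops early in spermatid elongation and reports a fall in absolute transcript abundance from RS to ES. In wt/wt 8 of 12 contigs were called higher in ES at an adjusted p (q) at or under 0.05 in edgeR's quasi-likelihood test, beside 23.8% of all tested contigs, and 0 of 12 were called lower, beside 16.5%. In dcat/dcat the same 8 contigs were called higher, beside 24.0%, and 0 lower, beside 16.9%. All 3 ES libraries lay above all 3 RS libraries for 8 of 12 contigs in wt/wt, beside 25.9% of all tested contigs, and for 7 of 12 in dcat/dcat, beside 25.7%. The median log2 change of the 12 contigs was 1.77 in wt/wt and 1.76 in dcat/dcat, against medians of -0.24 and -0.18 over all tested contigs, whose 5th to 95th percentiles ran from -1.54 to 2.72 and from -1.53 to 2.66. With library totals as the only scaling, which moved the median of all tested contigs by -0.71 in wt/wt and -0.66 in dcat/dcat, the background turned: 16.5% of all contigs were called higher and 45.7% lower in wt/wt, and 16.6% higher and 42.2% lower in dcat/dcat. Under that scaling 7 of the 8 contigs stayed called higher in wt/wt and 8 of 8 in dcat/dcat, with smaller changes: Spag4-201 was at 1.05 and 0.77, Spata6-201 at 1.05 and 1.07, and Pmfbp1-201 at 0.89 and 1.11. A change in the mix of cells and a change in a contig's RNA per cell can both move its share of a bulk library. The 2 cannot be told apart here.

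**Figure D1:**
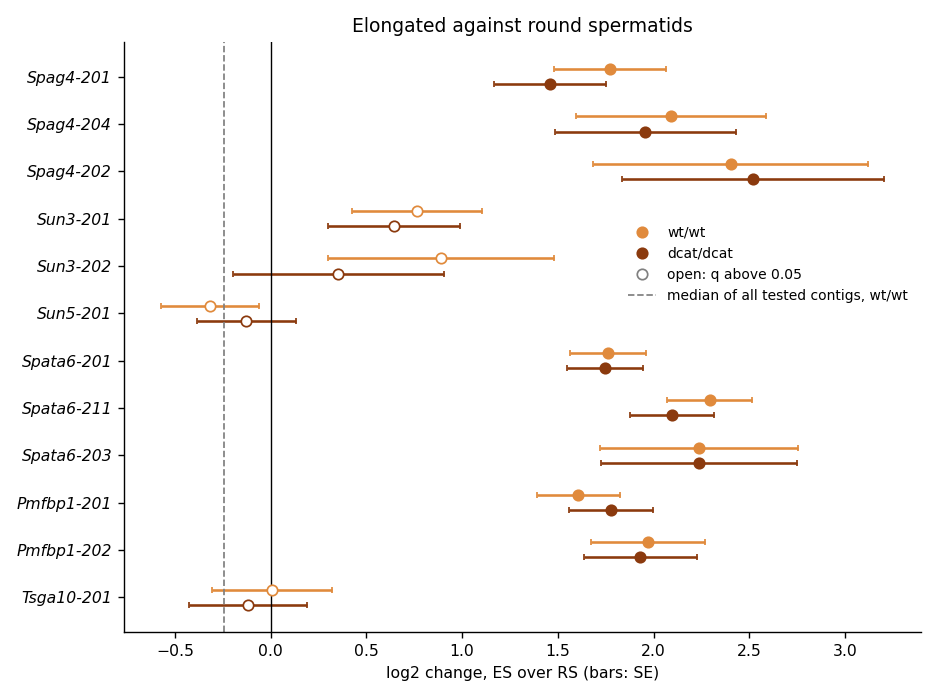
Log2 change from RS to ES of each of the 12 contigs (horizontal axis), in wt/wt and dcat/dcat, with bars of 1 standard error; filled points had q at or under 0.05, open points did not. The 3 *Spag4*, 3 *Spata6* and 2 *Pmfbp1* contigs lie right of 1.4 in both genotypes, and the *Sun3*, *Sun5* and *Tsga10* contigs are open points.

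*Spag4* lies on chromosome 2 (GRCm38, 156065175 to 156070617, plus strand) and 3 of its contigs were counted. The coding one, Spag4-201 (ENSMUST00000038860, 156065244 to 156069501), has 12 exons and 1473 bases, of which 1329 are coding, and held 1870 reads over the 12 libraries. Its levels in wt/wt were 106, 113 and 141 CPM in RS and 579, 335 and 318 CPM in ES. In dcat/dcat they were 134, 111 and 140.1 CPM in RS and 529, 292 and 243 CPM in ES. Every ES library was above every RS library of either genotype, and in both genotypes the ES library numbered 1 was the highest. The group means were 120.0 ± 18.9 (RS wt/wt), 128 ± 15.0 (RS dcat/dcat), 355 ± 153 (ES dcat/dcat) and 411 ± 146 CPM (ES wt/wt) (SD, n = 3 each), and in that order the neighbours of 1 stage overlapped. The log2 change from RS to ES was 1.77 in wt/wt (SE 0.293, edgeR q = 0.000255) and 1.46 in dcat/dcat (SE 0.293, q = 0.00116).

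The window around the annotated *Spag4* start is shown because the cAMP response element (CRE), the palindrome TGACGTCA, is the site to which CREM binds in promoters of spermatid genes, and because *Spag4* held the only full match among the 10 RefSeq windows searched, which cover 6 of the 7 members and not *Pmfbp1*. The RefSeq window (GRCm38.p6, 250 bases before to 50 after the start, plus strand) is printed 5′ to 3′ with the CRE and its 5-base core, TGACG or CGTCA on the other strand, in capitals.
Spag4 chr2:156064963-156065262: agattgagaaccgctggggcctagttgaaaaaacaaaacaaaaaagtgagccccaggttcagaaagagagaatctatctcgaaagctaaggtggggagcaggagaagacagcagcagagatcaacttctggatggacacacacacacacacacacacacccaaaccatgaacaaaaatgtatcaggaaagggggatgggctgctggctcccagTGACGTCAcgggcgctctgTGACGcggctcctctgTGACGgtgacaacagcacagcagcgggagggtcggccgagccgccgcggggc
The full CRE began 37 bases before the start, and further TGACG matches began 18 and 2 bases before it. With the 2 matches inside the palindrome, which reads the same on both strands, 4 core matches were found. Of 32817 RefSeq windows of the same length, 588 (1.79%) held the full site, on either strand. At least 1 core was held by 20.8%, at least 2 by 5.01% and at least 4 by 0.232%. The cutoff of 4 equals the count in this window, so the last share was not set independently of it. The motif was chosen with the stage results known, and a match is a description of letters, not of binding.

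The other *Spag4* contigs, Spag4-204 (ENSMUST00000133511, 156065175 to 156069501, 2022 bases) and Spag4-202 (ENSMUST00000125996, 156065198 to 156070617, 3892 bases), are annotated as retained introns with no coding sequence. They shared 71.9% and 37.8% of their bases with exons of Spag4-201, and Spag4-202 ran 1116 bases past its 3′ end. Spag4-204 ran from 7.48 to 32.1 CPM over the RS libraries and from 42.3 to 130.0 CPM over the ES libraries, with no overlap, and rose by a log2 change of 2.09 in wt/wt (SE 0.495, edgeR q = 0.00373) and 1.96 in dcat/dcat (SE 0.470, q = 0.00401). The stage change of Spag4-202 had the largest standard error of the 12. It stood at 7.48, 11.9 and 17.1 CPM in RS wt/wt and at 21.1, 110.3 and 67.1 CPM in ES wt/wt, and at 3.21, 18.4 and 30.5 CPM in RS dcat/dcat and 25.5, 139.8 and 141.8 CPM in ES dcat/dcat. Its log2 change was 2.40 in wt/wt (SE 0.720, q = 0.0154) and 2.52 in dcat/dcat (SE 0.686, q = 0.00881), where the ES library numbered 1 lay below the RS library numbered 3. Without the ES wt/wt library numbered 2 the wt/wt change of Spag4-202 was 1.78 with q = 0.115, and with library totals as the only scaling it was 1.70 with q = 0.0545.

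*Spata6* (chromosome 4, 111719984 to 111829184, plus strand) was the most counted member. Its longest contig, Spata6-201 (ENSMUST00000038868, 111719984 to 111829142, 13 exons, 2466 bases, 1464 coding), held 5100 reads. In wt/wt it stood at 333, 297 and 349 CPM in RS and at 1354, 951 and 1021 CPM in ES. The dcat/dcat levels were 341, 245 and 361 CPM in RS and 1264, 1051 and 876 CPM in ES. The lowest ES library was more than 2-fold above the highest RS library. The means were 316 ± 61.8 (RS dcat/dcat), 326 ± 27.0 (RS wt/wt), 1064 ± 194 (ES dcat/dcat) and 1109 ± 216 CPM (ES wt/wt) (SD, n = 3 each), with overlap within each stage. The log2 change was 1.76 in wt/wt (SE 0.198, edgeR q = 8.98e-06) and 1.75 in dcat/dcat (SE 0.198, q = 1.2e-05).

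Spata6-211 (ENSMUST00000143879, 111777558 to 111829134), annotated as a processed transcript with no coding sequence, starts 57574 bases downstream of Spata6-201, has 8 exons and 1857 bases, and shared 94.2% of them with Spata6-201. It held 3854 reads, and its levels were 145, 195 and 226 CPM in RS wt/wt and 885, 1094 and 798 CPM in ES wt/wt. In dcat/dcat the levels were 154, 218 and 265 CPM in RS and 881, 996 and 849 CPM in ES. No RS library reached the ES range, and Spata6-211 rose by a log2 change of 2.29 in wt/wt (SE 0.221, edgeR q = 2.79e-06) and 2.10 in dcat/dcat (SE 0.219, q = 6.75e-06). The coding contig Spata6-203 (ENSMUST00000084354, 111720205 to 111829184, 2239 bases) starts 221 bases downstream of Spata6-201, shared 98.1% of its bases with it and held 808 reads. It ran from 16.6 to 62.6 CPM over the RS libraries and from 90.4 to 280.3 CPM over the ES libraries, with log2 changes of 2.24 in both genotypes (SE 0.517, q = 0.00322 in wt/wt; SE 0.512, q = 0.00289 in dcat/dcat). A read that lies within shared exons can be placed on more than 1 of the 3 contigs, so the split within the gene is less certain than the sum.

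RefSeq gave 2 windows at *Spata6*, and both are shown because the annotated starts of 2 contigs lie near them. Spata6-201 starts 26 bases upstream of the first start and Spata6-211 starts 39 bases upstream of the second. Counts per contig do not show where reads begin, so use of either start was not tested. Capitals again mark the CRE core (plus strand, GRCm38.p6).
Spata6 chr4:111719760-111720059: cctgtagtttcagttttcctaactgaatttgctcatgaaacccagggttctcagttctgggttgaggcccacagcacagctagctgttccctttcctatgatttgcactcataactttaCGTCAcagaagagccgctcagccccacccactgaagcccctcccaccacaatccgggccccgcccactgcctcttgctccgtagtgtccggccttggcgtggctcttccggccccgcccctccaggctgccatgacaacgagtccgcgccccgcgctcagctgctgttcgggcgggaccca
Spata6 internal chr4:111777347-111777646: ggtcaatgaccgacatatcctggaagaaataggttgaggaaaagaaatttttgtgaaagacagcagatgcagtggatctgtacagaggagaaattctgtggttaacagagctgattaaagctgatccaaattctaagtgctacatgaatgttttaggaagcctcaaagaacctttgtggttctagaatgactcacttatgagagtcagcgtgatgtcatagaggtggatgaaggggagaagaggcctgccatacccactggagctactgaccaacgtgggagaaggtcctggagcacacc
The first window held 1 core match, CGTCA, 131 bases before the start, and the internal one held 0. The full site was in neither, and at least 1 core match stands in 20.8% of all windows.

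*Pmfbp1* (chromosome 8, 109494027 to 109542640, plus strand) was counted on 2 contigs. Pmfbp1-201 (ENSMUST00000034162, 21 exons, 3396 bases, 3066 coding) held 997 reads, and Pmfbp1-202 (ENSMUST00000212003, from 109495044, 20 exons, 3451 bases, processed transcript) held 872 and shared 94.3% of its bases with the first. Pmfbp1-201 stood at 73.1, 63.2 and 58.0 CPM in RS wt/wt and at 196, 217 and 177 CPM in ES wt/wt. The dcat/dcat libraries gave 64.1, 48.5 and 74.2 CPM in RS and 181, 199.7 and 263 CPM in ES. The stages did not overlap in either genotype, and the means, 62.3 ± 12.9 (RS dcat/dcat), 64.7 ± 7.70 (RS wt/wt), 197 ± 20.1 (ES wt/wt) and 215 ± 43.3 CPM (ES dcat/dcat) (SD, n = 3 each), were alike within the spread in each stage. The log2 change was 1.61 in wt/wt (SE 0.218, edgeR q = 4.81e-05) and 1.78 in dcat/dcat (SE 0.219, q = 2.36e-05). Pmfbp1-202 ran from 29.9 to 70.0 CPM in RS and from 154 to 252 CPM in ES and rose by 1.97 (SE 0.297, q = 0.000118) and 1.93 (SE 0.296, q = 0.000141).

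*Sun3* (chromosome 11, 9016054 to 9048991, minus strand) was counted on 2 coding contigs that differ at the 5′ end: Sun3-201 (ENSMUST00000043377, 10 exons, 1176 bases) and Sun3-202 (ENSMUST00000102909, 9 exons, 1205 bases), which starts 9402 bases further upstream and shared 89.8% of its bases with the first. Sun3-201 stood at 38.2, 22.6 and 52.0 CPM in RS wt/wt and at 82.4, 64.7 and 45.9 CPM in ES wt/wt. For dcat/dcat the values were 51.3, 24.9 and 36.3 CPM in RS and 69.6, 49.9 and 57.4 CPM in ES. In each genotype 1 RS library lay above the lowest ES library, and with 434 reads in all the log2 change of 0.76 in wt/wt (95% interval 0.10 to 1.43, edgeR q = 0.0843) and 0.64 in dcat/dcat (-0.030 to 1.32, q = 0.147) missed the threshold. Per the study's methods RS and ES were sorted from the same mice, and with the library number as a block Sun3-201 passed the test in both genotypes, at 0.80 (q = 0.012) in wt/wt and 0.65 (q = 0.0425) in dcat/dcat. Same-numbered RS and ES libraries deviated together in dcat/dcat, but not for every number in wt/wt. The block also raised the calls over all 11831 contigs, from 4766 to 6105 in wt/wt and from 4849 to 6145 in dcat/dcat. Without the RS wt/wt library numbered 3 the wt/wt change was 1.05 with q = 0.0383. Sun3-202, with 192 reads, ran from 4.98 to 32.1 CPM in RS and from 16.2 to 42.4 CPM in ES, with log2 changes of 0.89 (q = 0.242) and 0.35 (q = 0.634), and with the block 0.93 (q = 0.0356) and 0.34 (q = 0.397).

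Summed over both contigs, *Sun3* stood at 39.3, 41.0 and 68.1 CPM in RS wt/wt and at 102, 104 and 70.1 CPM in ES wt/wt. In dcat/dcat the sums were 52.7, 53.3 and 68.0 CPM in RS and 86.5, 97.3 and 92.0 CPM in ES. All ES sums lay above all RS sums, and *Sun3* rose by 0.90 in wt/wt (SE 0.236, edgeR q = 0.00366) and 0.65 in dcat/dcat (SE 0.235, q = 0.0271), but with library totals as the only scaling these became 0.071 (q = 0.772) and -0.13 (q = 0.606). The dcat/dcat call was lost when the RS library numbered 1 (log2 0.58, q = 0.0807), the RS library numbered 2 (0.60, q = 0.0731) or the ES library numbered 2 (0.64, q = 0.0606) was left out.

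*Sun5* (chromosome 2, 153856188 to 153871084, minus strand) was counted on 1 contig, Sun5-201 (ENSMUST00000028982, 12 exons, 1157 bases, 1044 coding), with 556 reads. It stood at 64.0, 60.8 and 73.3 CPM in RS wt/wt and at 63.4, 51.4 and 42.4 CPM in ES wt/wt. In the dcat/dcat libraries it stood at 66.2, 40.6 and 58.5 CPM in RS and at 53.3, 59.9 and 40.5 CPM in ES. All 4 groups overlapped with their neighbours, with means of 51.3 ± 9.86 (ES dcat/dcat), 52.4 ± 10.5 (ES wt/wt), 55.1 ± 13.1 (RS dcat/dcat) and 66.0 ± 6.53 CPM (RS wt/wt) (SD, n = 3 each). The log2 change was -0.32 in wt/wt (95% interval -0.82 to 0.18, edgeR q = 0.334) and -0.13 in dcat/dcat (-0.63 to 0.38, q = 0.72), and with library totals as the only scaling it was -1.04 (q = 0.00288) and -0.80 (q = 0.0142). The *Sun5* window is printed as the one from a member whose stage change missed the threshold (minus strand, GRCm38.p6), and it held neither the CRE nor its core.
Sun5 chr2:153871035-153871334: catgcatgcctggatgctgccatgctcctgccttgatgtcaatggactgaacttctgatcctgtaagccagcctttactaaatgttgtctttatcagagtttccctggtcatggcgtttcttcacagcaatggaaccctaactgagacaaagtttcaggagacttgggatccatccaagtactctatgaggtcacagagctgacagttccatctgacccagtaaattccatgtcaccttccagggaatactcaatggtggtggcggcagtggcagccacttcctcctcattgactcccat
The 2 *Sun3*, 3 *Tsga10* and 1 *Cntln* windows also held 0 matches, so the full site was found at 1 of 10 windows of 6 genes, *Cntln* among them and *Pmfbp1* not.

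*Tsga10* (chromosome 1) was counted on 1 contig, Tsga10-201 (ENSMUST00000041815, 37754776 to 37865079, minus strand, 20 exons, 3400 bases, 2091 coding), with 592 reads. It stood at 53.2, 63.2 and 61.5 CPM in RS wt/wt and at 35.9, 87.5 and 53.0 CPM in ES wt/wt. In dcat/dcat it stood at 56.6, 72.1 and 76.6 CPM in RS and at 41.7, 62.4 and 82.7 CPM in ES. The RS libraries lay inside the ES range in both genotypes, and the log2 change was 0.0081 in wt/wt (95% interval -0.60 to 0.62, edgeR q = 0.989) and -0.12 in dcat/dcat (-0.73 to 0.48, q = 0.779), while with library totals as the only scaling it was -0.71 (q = 0.0678) and -0.78 (q = 0.0464). A change of scaling moves all contigs nearly alike, so the shift between the scalings is not particular to *Tsga10*.

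**Figure D2:**
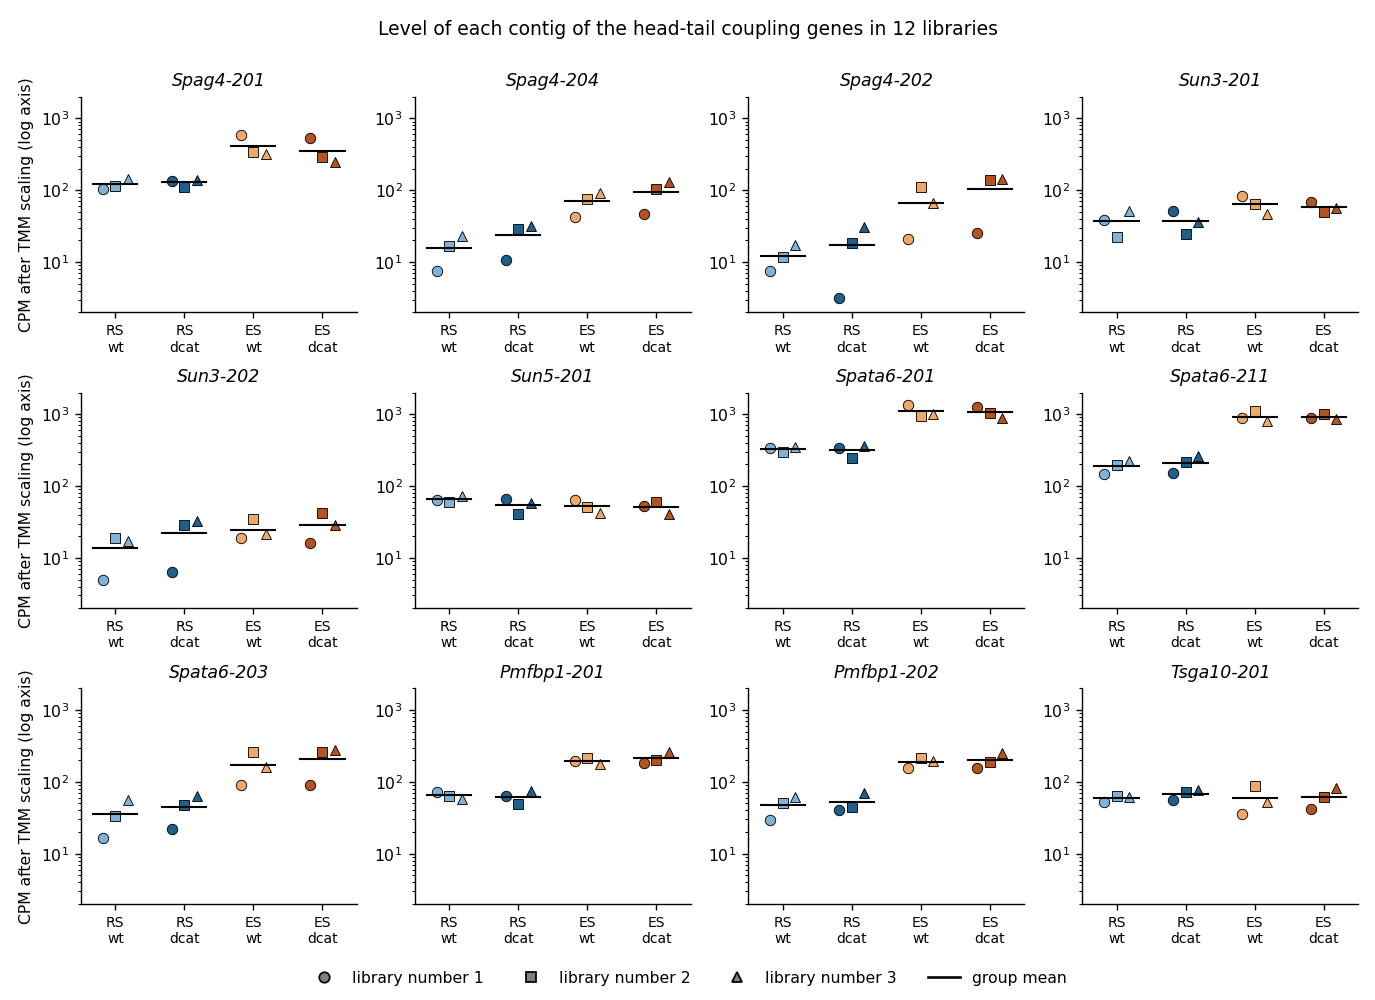
Level of each of the 12 contigs in the 12 libraries, in CPM after TMM scaling on a log axis, by stage and genotype; each symbol is 1 library, its shape gives the library number, and lines are group means. *Spag4*, *Spata6* and *Pmfbp1* contigs are higher in ES, *Sun5* and *Tsga10* overlap between stages, and circles (libraries numbered 1) lie lowest for Spag4-204, Spag4-202, Sun3-202, Spata6-203, Pmfbp1-202 and Tsga10-201.

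Summed by gene, 4 of the 6 counted genes were called higher in ES in wt/wt, beside 26.1% of 7706 gene sums tested, and 0 lower, beside 22.9%. In dcat/dcat 4 of 6 were again called higher, beside 26.4%, and 0 lower, beside 22.8%. *Spata6* rose by a log2 change of 2.10 in wt/wt (SE 0.175, edgeR q = 7.02e-09) and 2.03 in dcat/dcat (SE 0.174, q = 1.39e-08). *Spag4* rose by 1.98 (SE 0.193, q = 4.25e-08) and 1.79 (SE 0.192, q = 1.72e-07), and *Pmfbp1* by 1.88 (SE 0.207, q = 2.17e-07) and 1.96 (SE 0.207, q = 1.39e-07). *Sun5* was at -0.21 (q = 0.472) and -0.029 (q = 0.935), and *Tsga10* at 0.13 (q = 0.737) and 0.0017 (q = 0.998). Among the SUN-domain genes the 95% intervals of the wt/wt change were 1.60 to 2.36 for *Spag4*, 0.43 to 1.36 for *Sun3* and -0.67 to 0.24 for *Sun5*. In dcat/dcat they were 1.42 to 2.17, 0.19 to 1.11 and -0.49 to 0.44, where those of *Sun3* and *Sun5* overlapped. The differences between these genes were not tested.

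The genotype comparison asked whether loss of TENT5C catalysis changes the level of these mRNAs. No contig of these genes passed the test between dcat/dcat and wt/wt in either stage. In RS 0 of 12 contigs were called by edgeR, beside 0.0% of all contigs, and 0 had an unadjusted p under 0.05, beside 0.828%. In ES 0 of 12 were called, beside 0.0%, and 0 had an unadjusted p under 0.05, beside 3.01%. DESeq2 called 0 of 12 in both stages. The dcat/dcat and wt/wt libraries overlapped for every contig, where 5.31% of all contigs in RS and 7.66% in ES did not overlap. Of the 6 gene sums 0 were called in RS (0.0% of all sums) and 0 in ES (0.0%). In RS, where same-numbered libraries of the 2 genotypes deviated together, the fit with the number as a block also called 0 of 12, beside 3 of all 11831 contigs.

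The depth and the spread between libraries set how small a genotype difference could be seen. The intervals below are from the fit without a block. For the most counted contig, Spata6-201, the log2 difference between dcat/dcat and wt/wt was -0.047 in RS (95% interval -0.43 to 0.33) and -0.061 in ES (-0.44 to 0.32). Pmfbp1-201 was at -0.044 in RS (-0.47 to 0.38) and 0.13 in ES (-0.29 to 0.54). Spag4-201 was at 0.096 in RS (-0.47 to 0.66) and -0.22 in ES (-0.78 to 0.34), and Sun5-201 at -0.26 (-0.72 to 0.21) and -0.065 (-0.61 to 0.48). So a change of 2-fold in either direction lies outside the intervals of these 4 contigs in both stages. The lightly counted contigs allowed much more: Spag4-202 was at 0.51 in RS (-0.95 to 1.97) and 0.63 in ES (-0.65 to 1.90), and Sun3-202 at 0.73 (-0.32 to 1.77) and 0.19 (-0.98 to 1.36). Sun3-201 was at -0.028 (-0.67 to 0.61) and -0.15 (-0.84 to 0.54), and Tsga10-201 at 0.21 (-0.36 to 0.78) and 0.081 (-0.56 to 0.73).

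**Figure D3:**
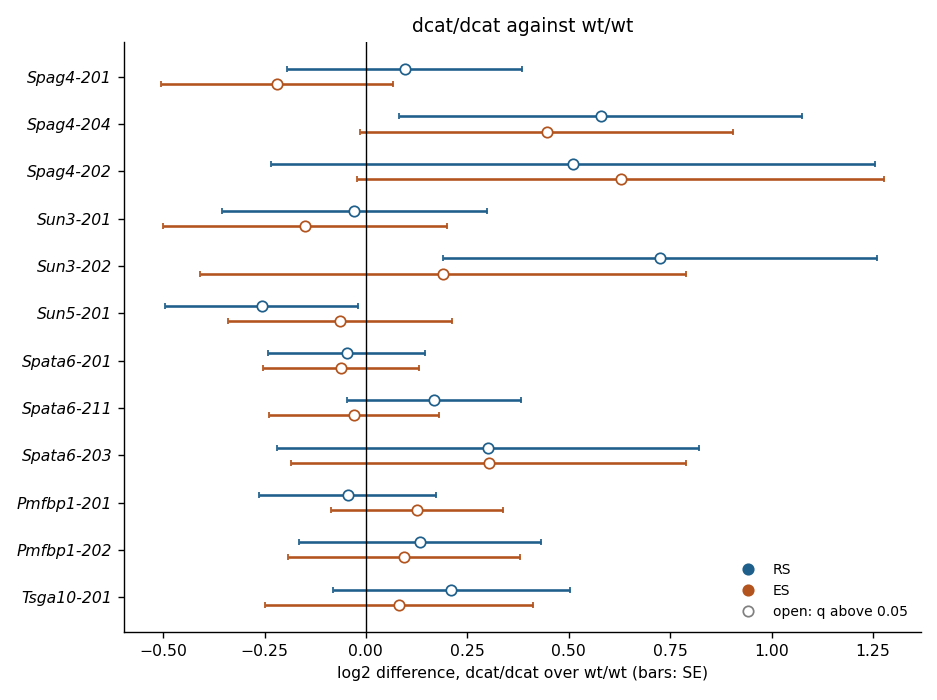
Log2 difference of dcat/dcat over wt/wt for each of the 12 contigs (horizontal axis), in RS and ES, with bars of 1 standard error; open points had q above 0.05. All 24 points are open, and they run from -0.26 (Sun5-201) to 0.73 (Sun3-202) in RS and from -0.22 (Spag4-201) to 0.63 (Spag4-202) in ES.

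The stage change itself was then compared between genotypes. The interaction term was called for 0 of 12 contigs by edgeR (0.0% of all contigs) and 0 of 6 gene sums (0.0%), and 0 of 12 had an unadjusted p under 0.05, beside 1.44%. DESeq2 also called 0. The interaction was -0.32 for Spag4-201 (95% interval -1.11 to 0.48), -0.014 for Spata6-201 (-0.55 to 0.52) and 0.17 for Pmfbp1-201 (-0.43 to 0.77) on the log2 scale. Over the 12 contigs it ran from -0.54 (Sun3-202) to 0.19 (Sun5-201). The rise of *Spag4*, *Spata6* and *Pmfbp1* was thus measured in both genotypes. A difference between the genotypes in that rise was not detectable at this depth and spread between libraries.

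The members with more than 1 contig were *Spag4*, *Spata6*, *Pmfbp1* and *Sun3*, which let the makeup of their reads be followed as well as the amount. The share of a gene's reads on its most counted contig was compared between stages with an exact two-sided permutation test within genotype. Spag4-201 held 87.6%, 79.8% and 77.9% of *Spag4* reads in RS wt/wt and 90.1%, 64.2% and 66.7% in ES wt/wt. In dcat/dcat it held 90.6%, 70.2% and 69.1% in RS and 88.0%, 54.7% and 47.2% in ES. The libraries numbered 1 stood apart at 87.6% to 90.6% in every group, and the mean difference of -10.7 points from RS to ES had an exact permutation p = 0.21 (q = 0.34 over 4 genes). Spata6-201 held 59.7% ± 6.60 of *Spata6* reads in RS and 50.3% ± 8.48 in ES of wt/wt, and 55.5% ± 9.30 in RS and 48.6% ± 6.93 in ES of dcat/dcat (SD, n = 3 each). Averaged over genotypes, Spata6-201 was at -8.11 points in ES relative to RS (exact permutation p = 0.1, q = 0.34). Pmfbp1-201 differed by -4.92 points (exact p = 0.255, q = 0.34) and Sun3-201 by 1.78 points (exact p = 0.86, q = 0.86). Between genotypes the differences were -7.74 (Spag4-201), -7.16 (Sun3-201), -2.97 (Spata6-201) and -1.36 points (Pmfbp1-201), with exact permutation q from 0.667 to 0.76. With same-numbered libraries taken as pairs, the share from RS to ES was lower in 6 of 6 pairs for Spata6-201 and Pmfbp1-201, in 5 of 6 for Spag4-201 and in 3 of 6 for Sun3-201. The exact permutation p over pairs was 0.03125 for Spata6-201 and Pmfbp1-201, the smallest that 64 arrangements can give, with q = 0.0625, and 0.0625 for Spag4-201 (q = 0.0833). Over 4 genes q could pass 0.05 only with 3 or more genes at that smallest p. None passed the threshold, and the exact binomial 95% interval of a single library, which covers counting error only, was up to 16.95 points wide for *Spag4* and 44.0 points for *Sun3*.

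**Figure D4:**
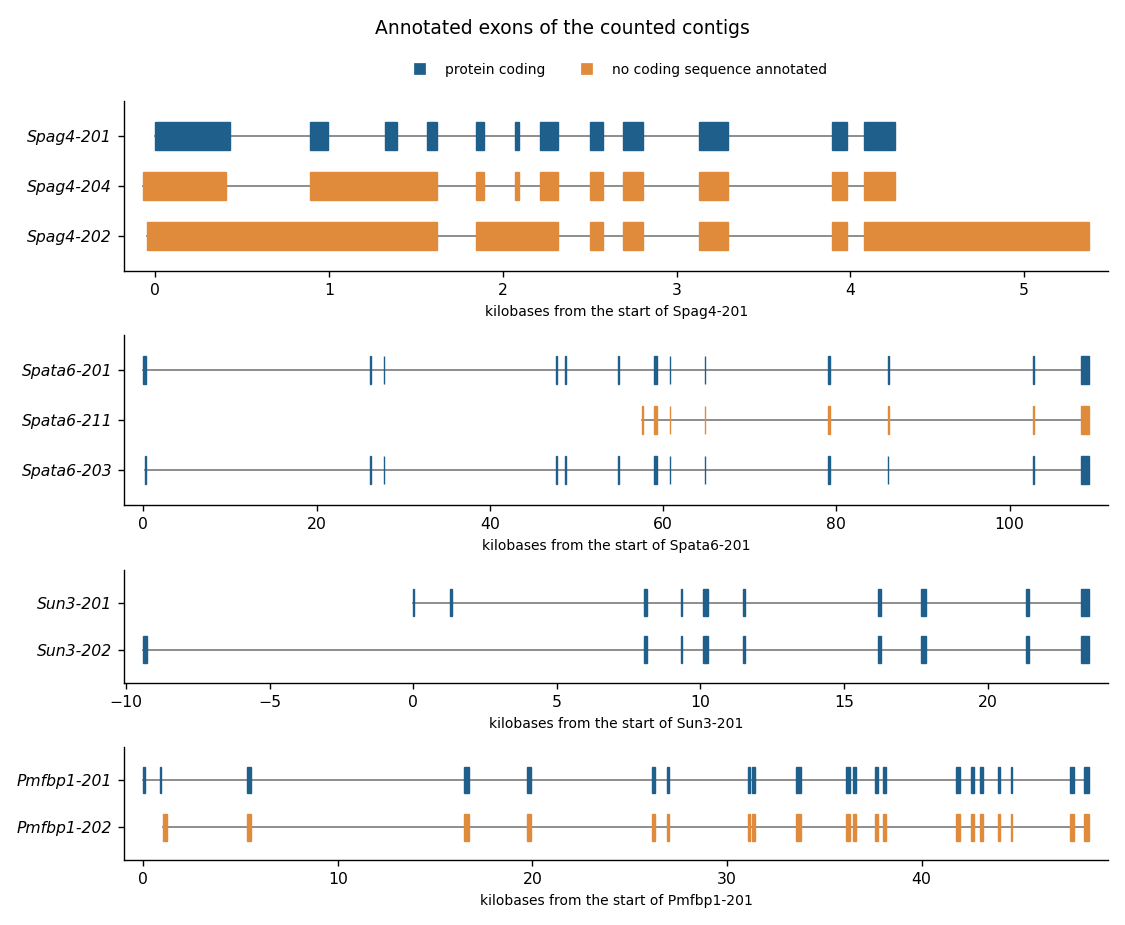
Annotated exons (boxes) and introns (lines) of the contigs of *Spag4*, *Spata6*, *Sun3* and *Pmfbp1*, in kilobases from the start of each gene's most counted contig, 5′ to 3′. Orange contigs have no annotated coding sequence; Spag4-202 extends 1116 bases past the 3′ end of Spag4-201, Spata6-211 starts 57574 bases downstream of Spata6-201 and Sun3-202 starts 9402 bases upstream of Sun3-201.

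**Figure D5:**
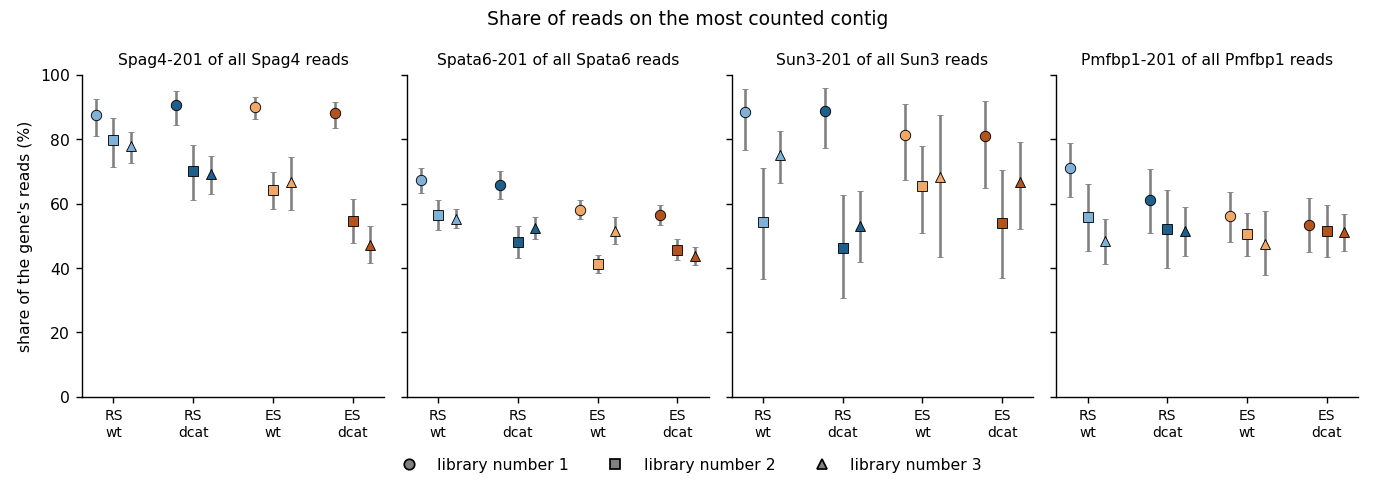
Share of each gene's reads on its most counted contig (vertical axis, percent from 0) in each library, with exact binomial 95% intervals; shapes give the library number. In each of the 4 groups and for each of the 4 genes the circle (library number 1) is the highest, as with Spag4-201 at 87.6% to 90.6%.

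The makeup of the reads followed the library number. For 4 of 4 genes the share of the most counted contig was highest in the library numbered 1 in all 4 groups, which held for 29.3% of 2577 genes with more than 1 contig. The library numbered 1 had the lowest level in all 4 groups for 6 of 12 member contigs (Spag4-202, Spag4-204, Sun3-202, Spata6-203, Pmfbp1-202 and Tsga10-201), beside 10.8% of all tested contigs. On average over the groups the number 1 library stood below the mean of the other two by a log2 difference of -2.04 for Spag4-202, -1.39 for Sun3-202, -1.36 for Spata6-203 and -1.28 for Spag4-204, and above it by 0.43 for Sun3-201, 0.41 for Spag4-201 and 0.27 for Spata6-201. Over all contigs the median of this difference was -0.69 for 495 retained-intron contigs, -0.38 for 516 processed transcripts and -0.017 for 9506 coding contigs. What the number stands for was not given in the sources used here, and this pattern was looked for after the values were seen. Without the 4 libraries numbered 1, the share differences from RS to ES were -16.1 (Spag4-201), -7.53 (Spata6-201), -1.70 (Pmfbp1-201) and 6.42 points (Sun3-201).

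For the most counted contig of each member, the 2 contigs of other genes with the most similar pattern over the 12 libraries were found among 4621 contigs with at least 300 reads, by the root mean square difference of centred log2 CPM. Spata6-201 had the closest neighbours, *Mapre3* (0.114), a microtubule end-binding protein gene, and *Cep295nl* (0.128). For Pmfbp1-201 they were *Ap2b1* (0.135), a clathrin adaptor subunit gene, and *Odf2* (0.165), whose product is an outer dense fibre protein. Spag4-201 was most like *Ube2k* (0.170), a ubiquitin-conjugating enzyme gene, and *Spata7* (0.179). Sun3-201 was most like *Lmntd2* (0.200) and *Smap1* (0.215), Sun5-201 like *Wdr20rt* (0.190) and *Arpc5l* (0.191), and Tsga10-201 like *Ralgps2* (0.185) and *Trip12* (0.208).

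The rest of the apparatus was counted from 3 lists chosen by function. Of 17 other HTCA genes 15 were counted, on 39 contigs, and 27 were called higher and 3 lower in ES in wt/wt and 28 higher and 3 lower in dcat/dcat, with median log2 changes of 1.94 and 1.79. *Odf2*, an outer dense fibre gene, rose by 2.08 in wt/wt and 1.81 in dcat/dcat on its contig with the smallest q, *Odf1*, of the same fibres and also 1 of the elongated spermatid markers, rose by 2.18 in wt/wt and 2.24 in dcat/dcat, *Hook1*, a manchette linker gene, by 2.28 and 2.31, and *Spem1* by 2.97 and 2.68. *Ccdc113* fell by 0.89 and 1.41, *Ccdc42* by 1.22 and 1.50, and the serine protease gene *Prss21* by 1.05 and 1.06. All 39 were left without a call between genotypes in either stage. These contigs thus lay, like those of *Spag4*, *Spata6* and *Pmfbp1*, mostly on the ES side. Of all contigs 23.8% and 24.0% were called higher and 16.5% and 16.9% lower. Summed by gene, 10 of 15 were called higher in both genotypes, beside 26.1% and 26.4% of all sums. Lower sums were called for 3 genes in wt/wt and 4 in dcat/dcat, beside 22.9% and 22.8%. *Oaz3*, also on this list, is an elongated spermatid marker too.

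The partners of the SUN-domain proteins were little counted. Of 15 SUN, KASH and lamina genes 6 were counted on 10 contigs, and *Sun1*, *Sun2*, *Syne1*, *Syne2*, *Syne3*, *Syne4*, *Lmna*, *Lmnb1* and *Lbr* matched 0 contigs and were not analysed here. The 2 contigs called higher in each genotype, with 0 lower, were both of *Banf2*, a relative of the chromatin-binding *Banf1*, with log2 changes from 1.65 to 1.89 (wt/wt) and from 1.68 to 1.999 (dcat/dcat). That is 2 of 10, beside 23.8% and 24.0% of all contigs called higher, and 0 of 10 beside 16.5% and 16.9% called lower. Summed by gene, 1 of 6 was called higher in each genotype, beside 26.1% and 26.4% of all sums. Another 1 of 6 was called lower in each genotype, beside 22.9% and 22.8%. The median over the list was 0.11 and -0.38, against -0.24 and -0.18 over all contigs. Of 20 centriole, linker and pericentriolar genes 13 were counted, and of 25 tested contigs 7 were called higher and 2 lower in wt/wt and 9 higher and 4 lower in dcat/dcat, with medians of -0.060 and 0.21. All contigs were called higher in 23.8% and 24.0% and lower in 16.5% and 16.9%. *Pcnt*, the pericentrin gene, rose by 2.50 and 2.78 on 2 contigs in wt/wt, *Cetn2*, a centrin gene, rose by 2.58 and *Fam161a* by 1.73, while *Cetn3* fell by 1.25 and *Cetn4* by 0.68. In dcat/dcat *Poc5* (-1.26) and *Cetn1* (-0.52) were lower as well. No contig of either list was called between genotypes.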

How the data were processed

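Direct RNA libraries were base-called with Guppy, aligned to GENCODE vM17 transcripts (GRCm38.p6) with minimap2 and kept where Nanopolish gave a PASS tail. The deposited values are raw counts of reads per contig; how the authors placed reads that fit several contigs is not given in the sources used here. The authors' DESeq2 tables, which hold their own fold changes and p-values, were used for gene symbols only; 5 contigs had conflicting symbols. Members, gene lists and motifs were chosen with earlier results of these data known.

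Contigs were tested where 2 or more libraries of 1 group held 10 reads or more. The test was edgeR 4.0.16's quasi-likelihood test (R 4.3.3) with TMM scaling, 1 mean per group over 12 libraries and Benjamini-Hochberg adjustment over 11831 contigs. SE is the log2 change over the root of F, and intervals are 1.96 SE. Exon models are from GENCODE vM21, same build. Contig shares were tested by exact permutation within stratum (400 arrangements, smallest p 0.005). *Sun3*, *Spata6* and *Tsga10* overlap genes on the opposite strand. Alternatives were DESeq2 1.42.0, other scalings and filters, sums by gene, the library number as a block and libraries left out. Every member contig was named, with the 2 contigs most alike the most counted contig of each gene. Up to 4 called contigs per list and direction were named. The edgeR and DESeq2 fits were tested on simulated counts, for the stage comparison in wt/wt and the genotype comparison in ES. Among the libraries 0 pairs were identical.

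Per the methods, RS and ES were sorted from the same mice and each sort session held 1 mouse of each genotype; whether same-numbered pools hold the same mice or sessions is not given in the sources used here. Same-number correlations of deviations from the group means were 0.25 to 0.52 (ES with RS, dcat/dcat) and 0.38 to 0.70 (dcat/dcat with wt/wt, RS), and not all over 0.1 in the other 2 comparisons. Fits with the number as a block are given beside each stage result whose call they change.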

Additional observations from a re-analysis of the deposited data

How the results depend on the processing

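Of the 8 stage calls per genotype, Spag4-202 in wt/wt lost its call without ES wt/wt replicate 2 and with library totals. Library totals gave 8 calls in wt/wt, of which Sun5-201 was lower (-1.04), and 10 in dcat/dcat, of which Sun5-201 (-0.80) and Tsga10-201 (-0.78) were lower. A filter of 10 counts in every library left 9 contigs tested, with 7 calls in wt/wt, of which Sun5-201 was lower (-0.64, edgeR q = 0.0235), and 6 in dcat/dcat. Most contigs were called under that filter: of 3719 tested, 2588 were called in wt/wt and 2562 in dcat/dcat, in either direction. Leaving out 1 library gave 7 to 9 calls in wt/wt and 8 in dcat/dcat, and 0 in the genotype comparisons and the interaction. Summed by gene, 4 of 6 were called in both genotypes in place of 8 of 12; leaving out 1 library gave 4 in wt/wt and 3 to 4 in dcat/dcat, and library totals gave 5, with *Sun5* and *Tsga10* lower and *Sun3* not called. No alternative called a genotype difference or interaction.

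Where a same-number correlation was under 0.1, the replicate block called 10 contigs in wt/wt (Sun3-201 0.80, q = 0.012; Sun3-202 0.93, q = 0.0356), with same-number correlations of -0.095 to 0.40 and 4 of 6 libraries most like their own number, and 0 of 12 between genotypes in ES (0.034 to 0.45; 5 of 6 libraries). In dcat/dcat it called 9 from RS to ES. Over all 11831 contigs the block called 6105 in wt/wt and 6145 in dcat/dcat from RS to ES, against 4766 and 4849 without it. Between genotypes in ES it called 1 of all contigs. With the block, the share tests gave exact permutation q = 0.0625 for *Spata6* and *Pmfbp1*, 0.0833 for *Spag4* and 0.719 for *Sun3*, where the smallest p of the 64 arrangements is 0.03125.

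Values near 0 changed sign, and the cause was not tested. With library totals, the stage change of Tsga10-201 in wt/wt was -0.71, of Sun3-201 in dcat/dcat -0.030 and of Sun3-202 in dcat/dcat -0.31; with 10 counts in every library Tsga10-201 in wt/wt was -0.30, and summed by gene it was 0.0017 in dcat/dcat. Of the genotype differences, summing gave 0.21 (*Sun3*), 0.066 (*Spata6*) and 0.049 (*Pmfbp1*) in RS and 0.017 (*Spag4*) in ES; without the number 1 libraries Spag4-201 was -0.023 and Pmfbp1-201 0.059 in RS, Sun5-201 0.010 and Tsga10-201 -0.017 in ES, and the *Pmfbp1* share difference was 1.04 points. Leaving out 1 library gave stage changes of -0.37 to 0.38 (Tsga10-201, wt/wt), -0.36 to 0.10 (Tsga10-201, dcat/dcat), -0.086 to 0.74 (Sun3-202, dcat/dcat) and -0.30 to 0.064 (Sun5-201, dcat/dcat). Genotype differences in RS were -5.0e-05 to 0.21 (Spag4-201), -0.31 to 0.26 (Sun3-201), -0.14 to 0.11 (Spata6-201) and -0.18 to 0.11 (Pmfbp1-201). In ES they were -0.63 to 0.11 (Spag4-201), -0.34 to 0.041 (Sun3-201), -0.20 to 0.093 (Sun5-201), -0.20 to 0.11 (Spata6-201), -0.053 to 0.24 (Pmfbp1-201) and -0.23 to 0.53 (Tsga10-201). Share differences were -2.82 to 8.31 points (Sun3-201, stage) and -3.88 to 1.79 points (Pmfbp1-201, genotype).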
